A study of Mus musculus with 15 samples.

Results

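The 10 genes described here make the cytosolic pathway of de novo fatty acid synthesis together with its transcriptional regulators, and were taken by symbol from the 55487 mouse genes listed in the deposited tables. They are Srebf1, Mlxipl and Thrsp on the regulatory side, Slc25a1, Acly and Acss2 in the supply of acetyl-CoA, Acaca and Acacb for its carboxylation, Fasn for chain assembly, and Me1 for NADPH. They were measured by RNA sequencing in erythroid progenitors, the dividing precursors of red cells, from the fetal liver of mouse embryos at E12.5. All embryos carried the 129S6/SvEvTac background, and the mutation lies in Rpl5, a gene for a component of the large ribosomal subunit. Mutations of ribosomal protein genes cause Diamond Blackfan anemia, and the series title places a lipid metabolism defect in that syndrome. For group 1 of mice, polyA RNA of 3 wildtype and 3 Rpl5 mutant samples was sequenced. For group 2 the labels give total RNA, and the samples were 3 wildtype, 3 mutant and 3 mutant ones labelled low-yield. The sample sheet deposited for group 2 records Rpl5plusSkax23Jus for all of its mutants. Neither the allele of the group 1 mutants nor the meaning of low-yield is given in the sources used here. No treatment is named, and the labels do not say whether a library came from 1 embryo or from several, so p-values measure only the spread between these libraries.

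Fatty acid synthesis starts from citrate, which is exported from mitochondria and cleaved in the cytosol to acetyl-CoA. Acetyl-CoA carboxylase turns acetyl-CoA into malonyl-CoA, and fatty acid synthase builds palmitate from both with NADPH as the reductant. In the liver, insulin and sterol signals raise the whole set of enzymes through SREBP-1, the membrane-bound transcription factor encoded by Srebf1, while glucose acts through ChREBP, encoded by Mlxipl. Red cell precursors divide fast and build new membrane, and mature red cells no longer make fatty acids.

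Total counts per library lay between 48510828 and 58513669 in group 1 and between 24954324 and 44827821 in group 2. All 10 erythroid markers were above the floor of 3 counts in every library, and their summed level was 3504 to 4591 CPM (the count scaled to a library total after TMM normalisation) in wildtype and 2331 to 2382 in mutant libraries of group 1. In group 2 it was 4039 to 6837 in wildtype, 3010 to 3416 in mutant and 2762 to 3519 in low-yield mutant libraries. Of these 10 markers, 7 fell and 1 rose in the mutants of group 1, 2 fell and 2 rose in the mutants of group 2, and 4 fell and 2 rose in the low-yield mutants. The markers did not move together. In group 1 the means in wildtype and mutant libraries were 363 and 86.2 CPM for Slc4a1 and 1321 and 424 for Hba-a1. Those of Kit were 161 and 198. In group 2 the means in wildtype, mutant and low-yield mutant libraries were 619, 159 and 125 CPM for Slc4a1 and 179, 247 and 257 for Kit. The mix of erythroid stages in the libraries was not tested. Rpl5 itself fell by 0.32 (SE 0.07, edgeR quasi-likelihood test, adjusted p = 0.0097) on the log2 scale in group 1, by 0.46 (SE 0.10, adjusted p = 0.0117) in the mutants and by 0.44 (SE 0.10, adjusted p = 0.0087) in the low-yield mutants of group 2. In bulk RNA, fewer cells of a type and less RNA per cell cannot be told apart. Differences between groups of mice in level are not compared here, because the kind of RNA differs.

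Srebf1 and Slc25a1 were lower in Rpl5 mutant than in wildtype libraries in every comparison, by about the same amount for Slc25a1 and with no overlap between groups for either gene. By contrast, Acaca, Fasn and Me1 had estimates above zero in each comparison with wildtype, and rose in the fit over both groups of mice. Acly had estimates above zero as well, and missed the threshold each time. In group 1, 2 of the 8 members that passed the filter on low counts were called lower at an adjusted p under 0.05, against 6.78% of all genes tested, and 0 were called higher, against 5.79%. Same-numbered libraries of group 1 deviated together over genes, though 1 pair of unlike number did so too, and with the number as a block 2 were lower, against 9.92% of tested genes, and 3 higher (Acaca, Fasn and Me1), against 10.5%. In the mutants of group 2, 2 of 8 were again called lower, against 2.95% of tested genes, and 0 higher, against 3.32%. In the low-yield mutants 2 of 8 were called lower, against 5.86%, and 0 higher, against 6.68%. Without the block, the members called were Srebf1 and Slc25a1 each time, and DESeq2 added Acly, Acaca and Fasn in group 1 and Acaca in each comparison of group 2. An unadjusted p under 0.05 was found for 7, 5 and 6 of the 8, and for 3846 of 14048, 3071 of 15024 and 3984 of 15024 genes tested. Both comparisons of group 2 use the same 3 wildtype libraries. With both groups of mice in 1 fit, 3 of 8 were lower and 3 higher, against 9.8% of tested genes in each direction.

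**Figure D1:**
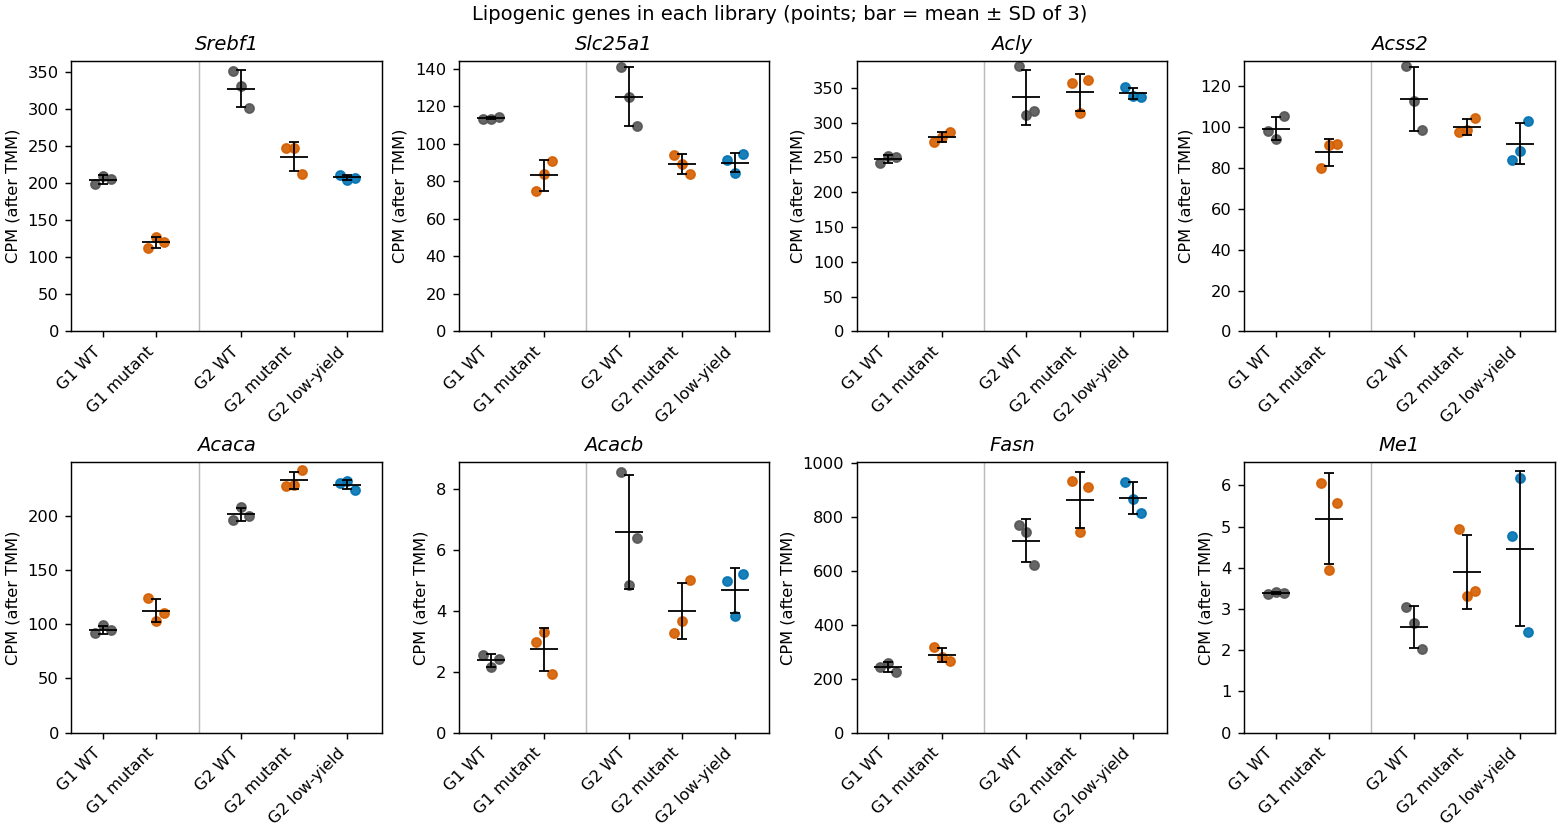
CPM of the 8 members that passed the filter in each of the 15 libraries (points) with the mean and SD of 3 libraries (bars), for wildtype (WT), mutant and low-yield mutant libraries of group 1 (G1) and group 2 (G2); each vertical axis starts at 0. Srebf1 spans 113 to 127 in the mutants against 199 to 210 in the wildtype libraries of group 1, and 204 to 247 against 301 to 350 in group 2, whereas Acaca lies above wildtype in every mutant library.

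The sequences around the start sites of the 2 genes that fell everywhere, Srebf1 and Slc25a1, are shown beside that of Fasn, which did not fall. Each window holds 250 bases before and 50 bases after a start site, on the gene's strand, 5′ to 3′, from RefSeq on GRCm38.p6. All 10 members matched the RefSeq table, with 14 windows in all. Srebf1 has 3 windows, and its alternative first exons, known to give the SREBP-1a and SREBP-1c proteins, are not separated by gene-level counts. Capitals mark the CCAAT box (CCAAT, bound by NF-Y), the GC box (GGGCGG, bound by Sp1), the E-box CACGTG and a sterol regulatory element core TCACNCCAC, searched on both strands; none of these motifs contains another.

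The windows are Srebf1 at chr11:60222532-60222831, chr11:60220578-60220877 and chr11:60210422-60210721 (from the first to the last), Slc25a1 at chr16:17928170-17928469 and Fasn at chr11:120824498-120824797, all on the minus strand.
Srebf1 first window: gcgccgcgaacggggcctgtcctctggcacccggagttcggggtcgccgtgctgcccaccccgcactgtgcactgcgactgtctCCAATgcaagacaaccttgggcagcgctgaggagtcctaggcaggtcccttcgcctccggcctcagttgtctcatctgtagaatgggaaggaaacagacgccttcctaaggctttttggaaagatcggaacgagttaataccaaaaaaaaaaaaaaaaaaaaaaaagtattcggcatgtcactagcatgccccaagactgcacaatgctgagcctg
Srebf1 second window: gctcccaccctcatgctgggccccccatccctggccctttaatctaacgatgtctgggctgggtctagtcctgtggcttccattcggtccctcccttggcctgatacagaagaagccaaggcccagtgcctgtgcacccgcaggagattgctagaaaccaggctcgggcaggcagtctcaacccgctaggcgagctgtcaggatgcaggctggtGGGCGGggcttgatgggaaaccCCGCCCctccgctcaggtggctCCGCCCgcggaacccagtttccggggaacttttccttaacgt
Srebf1 last window: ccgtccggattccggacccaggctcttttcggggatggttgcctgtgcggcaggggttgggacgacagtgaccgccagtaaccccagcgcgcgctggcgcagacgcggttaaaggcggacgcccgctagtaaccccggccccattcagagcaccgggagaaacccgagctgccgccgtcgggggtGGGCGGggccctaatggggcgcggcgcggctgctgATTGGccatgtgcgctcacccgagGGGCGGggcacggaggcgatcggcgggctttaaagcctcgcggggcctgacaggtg
Slc25a1: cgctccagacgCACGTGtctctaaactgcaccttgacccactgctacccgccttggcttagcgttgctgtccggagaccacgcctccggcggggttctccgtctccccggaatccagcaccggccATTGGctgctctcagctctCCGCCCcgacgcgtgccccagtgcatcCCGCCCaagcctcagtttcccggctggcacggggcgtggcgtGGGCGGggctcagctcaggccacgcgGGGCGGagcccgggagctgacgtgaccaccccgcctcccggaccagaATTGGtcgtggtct
Fasn: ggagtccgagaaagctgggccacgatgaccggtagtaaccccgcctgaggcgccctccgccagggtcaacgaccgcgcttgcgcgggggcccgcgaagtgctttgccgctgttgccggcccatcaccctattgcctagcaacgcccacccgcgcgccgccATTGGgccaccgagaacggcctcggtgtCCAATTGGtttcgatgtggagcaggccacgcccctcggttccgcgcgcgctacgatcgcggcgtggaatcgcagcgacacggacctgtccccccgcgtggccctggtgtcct

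The Slc25a1 window holds the E-box, a CCAAT box at 2 places and a GC box at 4 places. The Fasn window holds 3 CCAAT boxes on both strands, 2 of which overlap, and no GC box of these letters. Genes that did not fall can hold it too: GC boxes were also found in windows of Acly and Me1. Over the 14 member windows the CCAAT box was found in 10 and in 37.4% of all 32851 RefSeq windows of the same length. The GC box was found in 7 and in 35.7% of all windows, the E-box in 2 and in 7.15%, and the sterol core in 1, a window of Mlxipl, and in 1.24%. The GATA letters AGATAA were in none of the 14 and in 11.2% of all windows. A match describes letters in a window and is no evidence of binding, and an absent match says only that these letters are not there. The RefSeq windows of Acaca and Acacb, both among the 14, start inside the genes as GENCODE release M21 draws them (chr11:84129672-84401651 and chr5:114146535-114250761), so they do not describe the first exons of those models.

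Srebf1 (ENSMUSG00000020538, chr11:60199089-60222581, minus strand) stood at 199, 210 and 205 CPM in the wildtype and 113, 127 and 120 CPM in the mutant libraries of group 1. Every mutant library was below every wildtype library, and the gene fell by 0.77 on the log2 scale (SE 0.06, adjusted p = 3.5e-05), or by 41.3%. In group 2 it stood at 350, 331 and 301 CPM in wildtype, 247, 247 and 212 CPM in mutant and 211, 204 and 207 CPM in low-yield mutant libraries. It fell by 0.47 (SE 0.08, adjusted p = 0.0039), or 28.0%, in the mutants and by 0.66 (SE 0.08, adjusted p = 0.00023), or 36.6%, in the low-yield mutants, again without overlap. Over both groups of mice it fell by 0.62 (SE 0.06, adjusted p = 1.7e-06). The change was 0.31 smaller in group 2 than in group 1 (SE 0.11, unadjusted p = 0.0124, edgeR interaction test), a difference that did not pass adjustment over all genes (adjusted p = 1).

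Srebf1 shares 109 exonic bases with Rai1 on the opposite strand, and the use of strand in counting is not given in the sources used here. Rai1 was not called, at -0.02 (SE 0.09) in group 1, -0.04 (SE 0.09) in the mutants and 0.06 (SE 0.09) in the low-yield mutants of group 2. Hepatocytes, which express Srebf1 and the lipogenic enzymes, are neighbouring cells in the fetal liver. The summed level of 12 hepatocyte markers was 36.7 to 68.4 CPM in wildtype and 8.16 to 24.0 CPM in mutant libraries of group 1, where 4 of the 12 fell. In group 2 the levels were 12.7 to 90.4 in wildtype, 11.5 to 55.6 in mutant and 50 to 56.3 in low-yield mutant libraries, and the median log2 fold change of the 12 was -0.52 and 0.16. The sum of 10 granulocyte markers was 92.9 to 722 CPM in wildtype and 219 to 1343 in mutant libraries of group 1. Group 2 had 13.9 to 26.8 CPM in wildtype, 95.1 to 196 in mutant and 141 to 285 in low-yield mutant libraries, with 6 and 9 of 9 tested markers higher. The sum of 9 stroma and endothelium markers was 2.76 to 4.73 CPM in wildtype and 4.68 to 10.8 in mutant libraries of group 1. Their sum in group 2 was 2.17 to 3.30 in wildtype, 4.36 to 7.26 in mutant and 8.10 to 12.1 in low-yield mutant libraries, with 1 and 2 of 4 tested markers higher. The sum of 7 megakaryocyte markers was 23.4 to 39.8 CPM in wildtype and 26.5 to 40.3 in mutant libraries of group 1, and 34.8 to 39.2, 32.7 to 38.8 and 48.2 to 49.4 in wildtype, mutant and low-yield mutant libraries of group 2. Of its 5 markers tested in the low-yield mutants, 2 were higher and 1 lower. The part of these cell types in the results was not tested. Of the macrophage markers, Timd4 and Cd5l were at 0 in all libraries, and the sum of the 10 was at most 10.7 CPM.

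The other regulators were barely transcribed. Mlxipl (ChREBP, the carbohydrate-responsive factor) had 1, 0 and 26 counts in wildtype and 0, 3 and 4 counts in mutant libraries of group 1. Wildtype libraries of group 2 had 0, 0 and 1 counts of it, the mutants 0, 0 and 5, and the low-yield mutants 2, 6 and 11, each above every wildtype library. Thrsp, the thyroid hormone responsive Spot 14 protein that accompanies lipogenesis in liver, had 3, 0 and 0 counts in wildtype and none in mutant libraries of group 1. Wildtype libraries of group 2 had 5, 10 and 4 counts of Thrsp, the mutants 0, 6 and 7, and the low-yield mutants 4, 2 and 3, with overlap. Neither gene passed the filter, so no fold change is given. A floor of 3 counts equals 0.0513 to 0.12 CPM, depending on the library.

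Slc25a1 (ENSMUSG00000003528, chr16:17925223-17928219, minus strand) encodes the carrier that exports citrate from mitochondria. Its level was 113, 113 and 114 CPM in wildtype and 74.9, 83.8 and 91.1 CPM in mutant libraries of group 1. Among group 2 libraries it was 141, 125 and 110 CPM in wildtype, 94.3, 89.3 and 84.0 CPM in mutant and 91.3, 84.3 and 94.4 CPM in low-yield mutant libraries. All mutant libraries lay below all wildtype libraries of their group. It fell by 0.45 (SE 0.07, adjusted p = 0.0029), 0.49 (SE 0.10, adjusted p = 0.0073) and 0.48 (SE 0.10, adjusted p = 0.0046) in the 3 comparisons, and by 0.47 (SE 0.06, adjusted p = 2.3e-05) over both groups of mice. The difference between the groups of mice was -0.02, with a 95% confidence interval of -0.29 to 0.25.

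Acly, which cleaves the exported citrate into acetyl-CoA and oxaloacetate, missed the threshold in each comparison with wildtype. It stood at 241, 252 and 250 CPM in wildtype and 273, 279 and 287 CPM in mutant libraries of group 1, so that the groups did not overlap, with an estimate of 0.17 (SE 0.06, adjusted p = 0.0645). For group 2 the values were 381, 311 and 317 CPM in wildtype, 356, 313 and 362 CPM in mutant and 351, 338 and 336 CPM in low-yield mutant libraries. Those groups overlapped, and the estimates were 0.03 (95% confidence interval -0.16 to 0.22) and 0.02 (-0.17 to 0.22). In the fit of both groups of mice, the estimate was 0.10 (SE 0.06, adjusted p = 0.238), and 1 of the 12 fits without 1 library called it, the one without wildtype replicate 1 of group 2 (adjusted p = 0.0385), as did voom with sample weights (adjusted p = 0.0297). DESeq2, a minimum mean of 5 CPM, and voom with sample weights each called Acly as higher in group 1.

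Acss2, the cytosolic and nuclear enzyme that makes acetyl-CoA from acetate, had estimates below zero throughout. Its level was 98.0, 94.4 and 105 CPM in wildtype and 80.0, 91.5 and 91.6 CPM in mutant libraries of group 1, without overlap. In group 2 it was 130, 113 and 98.4 CPM in wildtype, 97.5, 98.3 and 104 CPM in mutant and 83.9, 88.4 and 103 CPM in low-yield mutant libraries, with overlap. The estimates were -0.18 (SE 0.07, adjusted p = 0.143), -0.18 (SE 0.10, adjusted p = 0.366) and -0.30 (SE 0.10, adjusted p = 0.0715). Without 1 library they ranged from -0.215 to -0.117, from -0.276 to -0.066 and from -0.400 to -0.193. Of the 9 such fits for the low-yield mutants, 2 called Acss2 (adjusted p down to 0.0303). Over both groups of mice it fell by 0.18 (SE 0.06, adjusted p = 0.0494), a call that was kept in 1 of the 12 fits without 1 library, namely without wildtype replicate 3 of group 2; in the other 11 the adjusted p lay between 0.0577 and 0.112. Acss2 also shares 395 exonic bases with Gss on the opposite strand, whose own estimates were -0.16 (adjusted p = 0.166), -0.13 (adjusted p = 0.573) and -0.28 (adjusted p = 0.105). Reads in that stretch cannot be assigned to 1 of the genes where counting ignored strand, and the merged exons of Acss2 span 10163 bases.

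Acaca (acetyl-CoA carboxylase 1, the cytosolic isoform that feeds synthesis) was higher in all mutant than in all wildtype libraries of each group. It stood at 91.4, 98.8 and 94.4 CPM in wildtype and 124, 103 and 110 CPM in mutant libraries of group 1. In group 2 the levels were 196, 208 and 200 CPM in wildtype, 228, 228 and 242 CPM in mutant and 230, 232 and 224 CPM in low-yield mutant libraries. The estimates of 0.25 (SE 0.08, adjusted p = 0.0559), 0.21 (SE 0.07, adjusted p = 0.0953) and 0.18 (SE 0.07, adjusted p = 0.106) each missed the threshold. In group 1 the fit with the replicate number as a block called it (adjusted p = 0.0259). In the fit of both groups of mice, Acaca rose by 0.23 (SE 0.06, adjusted p = 0.0063), and it was called in all 12 fits without 1 library.

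Acacb (acetyl-CoA carboxylase 2, the mitochondrial surface isoform whose malonyl-CoA restrains fatty acid oxidation) was far lower. Its level was 2.55, 2.13 and 2.42 CPM in wildtype and 2.96, 3.28 and 1.94 CPM in mutant libraries of group 1. Among group 2 libraries it was 8.54, 4.82 and 6.39 CPM in wildtype, 3.26, 3.67 and 5.01 CPM in mutant and 4.96, 3.84 and 5.20 CPM in low-yield mutant libraries, all overlapping. Its estimate was 0.20 (SE 0.27, adjusted p = 0.676) in group 1, -0.69 (SE 0.25, adjusted p = 0.121) in the mutants and -0.48 (SE 0.24, adjusted p = 0.222) in the low-yield mutants of group 2. Without 1 library it lay between 0.04 and 0.40 in group 1 and between -0.66 and -0.27 in the low-yield mutants, the values nearest 0 being those without mutant replicate 2 of group 1 and without wildtype replicate 1 of group 2. With voom and sample weights the estimate in the mutants of group 2 was -0.37. The difference between the groups of mice, -0.87 (SE 0.38, unadjusted p = 0.0344, edgeR interaction test), did not pass adjustment, and it was -0.40 with voom and sample weights. Per kilobase of exon, Acacb made up 4.25% ± 0.52 (SD, n = 3) of both carboxylases in wildtype and 4.14% ± 1.17 (SD, n = 3) in mutant libraries of group 1. In group 2 the share was 5.49% ± 1.61 in wildtype, 2.93% ± 0.55 in mutant and 3.50% ± 0.57 in low-yield mutant libraries (SD, n = 3 each). The highest mutant library, 3.54%, lay below the lowest wildtype library, 3.95%, in group 2, and the low-yield mutants overlapped wildtype.

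Fasn (ENSMUSG00000025153, chr11:120805846-120824547, minus strand), the multienzyme that assembles palmitate, stood at 244, 258 and 223 CPM in wildtype and 315, 280 and 267 CPM in mutant libraries of group 1. For group 2 the values were 770, 743 and 619 CPM in wildtype, 932, 743 and 908 CPM in mutant and 929, 866 and 812 CPM in low-yield mutant libraries. Groups did not overlap in group 1 or between low-yield mutant and wildtype, while the lowest mutant library of group 2 lay among the wildtype values. The estimates were 0.25 (SE 0.08, adjusted p = 0.0567), 0.28 (SE 0.10, adjusted p = 0.128) and 0.29 (SE 0.10, adjusted p = 0.0789). With the replicate number as a block, Fasn was called in group 1 (adjusted p = 0.0116). In the mutants of group 2 it was called in 1 of 9 fits without 1 library and in 1 of 8 other settings. In the low-yield mutants it was called in 2 of 9 and 3 of 8. Over both groups of mice it rose by 0.26 (SE 0.07, adjusted p = 0.0141), and it was called in all 12 fits without 1 library.

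Me1, the cytosolic malic enzyme that returns malate to pyruvate and yields NADPH, was a low-level gene. It stood at 3.36, 3.40 and 3.39 CPM in wildtype and 6.06, 3.95 and 5.57 CPM in mutant libraries of group 1, without overlap. In group 2 it was 3.04, 2.66 and 2.03 CPM in wildtype, 4.94, 3.32 and 3.43 CPM in mutant and 4.76, 6.18 and 2.44 CPM in low-yield mutant libraries, the last group overlapping wildtype. The estimates were 0.62 (SE 0.21, adjusted p = 0.0827), 0.62 (SE 0.34, adjusted p = 0.335) and 0.78 (SE 0.33, adjusted p = 0.138). Without 1 library the low-yield estimate lay between 0.47 (without low-yield mutant replicate 2) and 1.12 (without replicate 3, adjusted p = 0.0171), and leaving out mutant replicate 2 of group 1 gave a call there (adjusted p = 0.0320). The replicate block called Me1 in group 1 (adjusted p = 0.0378). It rose by 0.62 (SE 0.17, adjusted p = 0.0117) over both groups of mice, and was called in all 12 fits without 1 library.

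Counted by whether libraries overlapped, 7 of the 8 tested members separated mutant from wildtype in group 1, 4 of them higher and 3 lower, where 31.6% of all tested genes did so. In group 2, 4 of 8 separated mutant from wildtype (Acaca and Me1 higher, Srebf1 and Slc25a1 lower), where 23.2% of all genes did. For the low-yield mutants 4 of 8 did (Acaca and Fasn higher, Srebf1 and Slc25a1 lower), where 29.9% of all genes did. The median log2 fold change of the 8 was 0.19, -0.07 and -0.14 in the 3 comparisons, against 0.01, -0.01 and 0.00 for all tested genes.

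**Figure D2:**
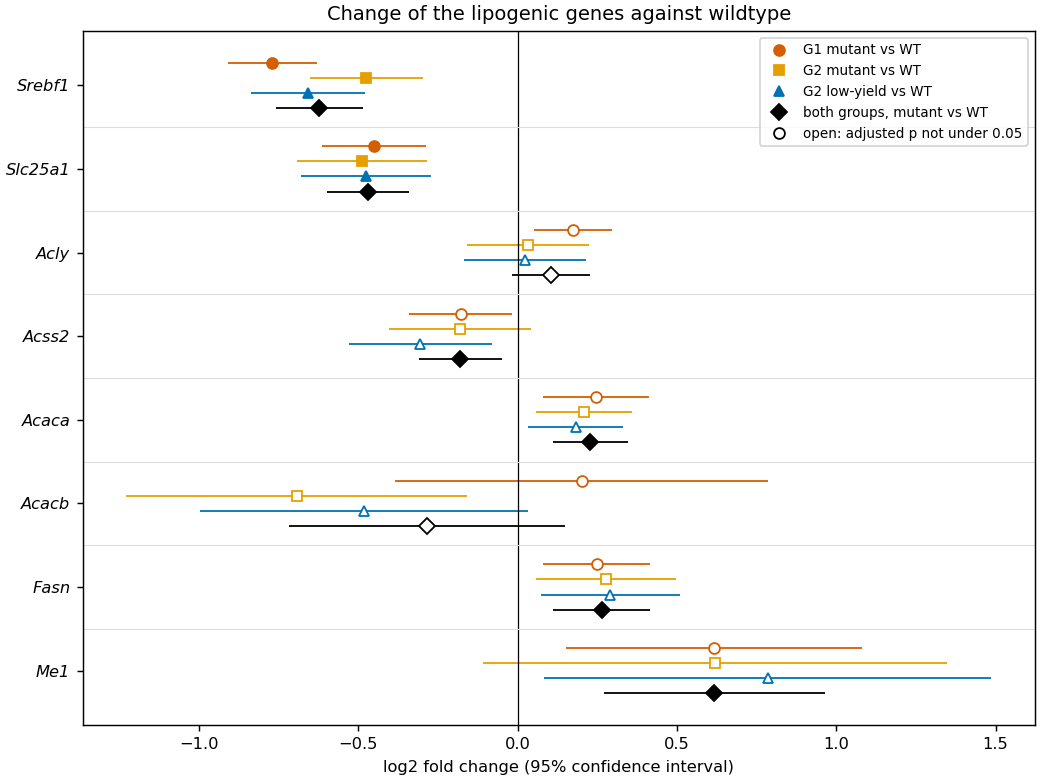
Log2 fold change against wildtype, with 95% confidence interval, of the 8 tested members in group 1, in the mutants and the low-yield mutants of group 2, and over both groups of mice; filled symbols have an adjusted p under 0.05 (edgeR). Srebf1 and Slc25a1 are filled and below 0 in all 4 comparisons, while Acaca, Fasn and Me1 lie above 0 and are filled only over both groups.

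Low-yield mutant and mutant libraries of group 2 were not told apart by any member: 0 of 8 were called, with edgeR, DESeq2 and voom alike, and 0% of all 15024 tested genes were called. At an unadjusted p under 0.05, 1 of 8 members passed, as did 480 of all tested genes. That member was Srebf1, at -0.18 (SE 0.08, unadjusted p = 0.0453, adjusted p = 1.00), whose 3 low-yield libraries lay below the 3 mutant libraries by a narrow margin, 211 against 212 CPM at the nearest point. It was the single member whose groups did not overlap, where 8.21% of all genes did not. The 95% confidence interval of the difference was -0.19 to 0.22 for Slc25a1, -0.18 to 0.12 for Acaca and -0.21 to 0.23 for Fasn. Testing whether the change differed between the 2 groups of mice called 0 of 8 members with edgeR, DESeq2 and voom, against 0% of all genes higher and 0.0188% lower (3 of 15954); 2 members, Srebf1 and Acacb, had an unadjusted p under 0.05.

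Ratios within single libraries set Srebf1 against the synthase and the carrier against the lyase. The count ratio of Srebf1 to Fasn was 0.849 ± 0.062 in wildtype and 0.421 ± 0.055 in mutant libraries of group 1 (SD, n = 3 each). It was 0.462 ± 0.021 in wildtype, 0.277 ± 0.051 in mutant and 0.239 ± 0.015 in low-yield mutant libraries of group 2. The count ratio of Slc25a1 to Acly was 0.459 ± 0.010 in wildtype and 0.298 ± 0.022 in mutant libraries of group 1, and 0.373 ± 0.028, 0.261 ± 0.027 and 0.263 ± 0.016 in the wildtype, mutant and low-yield mutant libraries of group 2. Neither ratio overlapped between mutant and wildtype libraries of a group. By contrast the ratio of Acaca to Fasn counts was 0.393 ± 0.026 in wildtype and 0.392 ± 0.022 in mutant libraries of group 1. In group 2 it was 0.286 ± 0.034 in wildtype, 0.273 ± 0.032 in mutant and 0.264 ± 0.015 in low-yield mutant libraries. Mutant and wildtype libraries overlapped in this ratio in both groups. These ratios do not depend on library size, and no test was made on them.

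**Figure D3:**
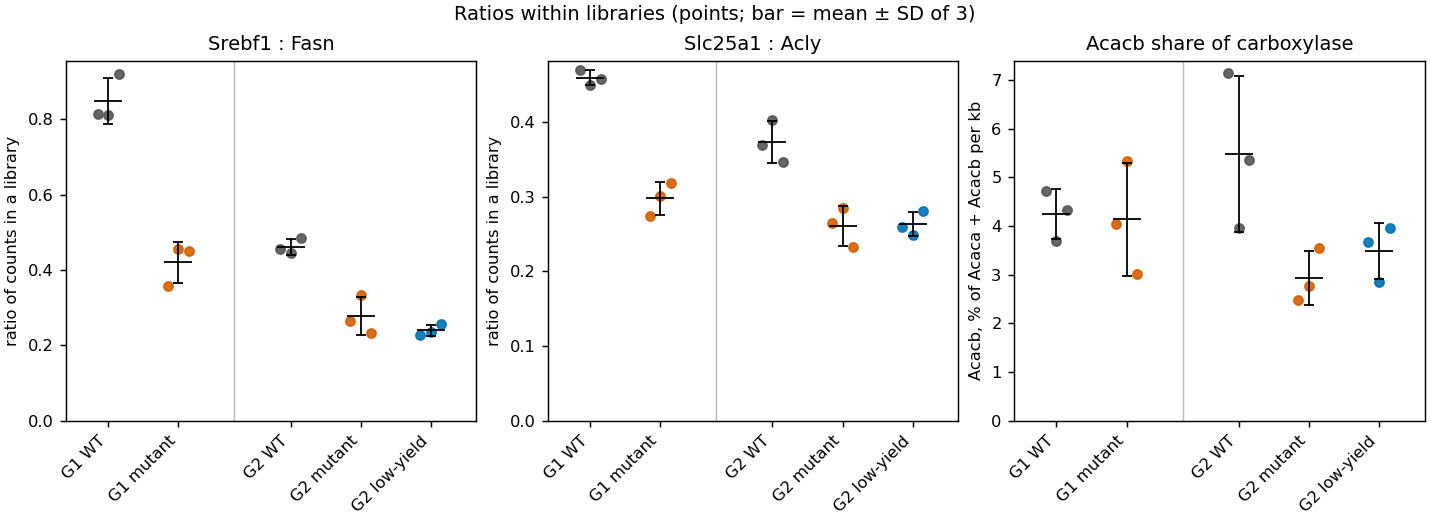
Count ratio of Srebf1 to Fasn and of Slc25a1 to Acly, and the share of Acacb in the 2 acetyl-CoA carboxylases per kilobase of exon, in each library (points) with mean and SD of 3 (bars). The mean Srebf1 to Fasn ratio is 0.849 in wildtype and 0.421 in mutant libraries of group 1, and 0.462 and 0.277 in group 2.

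Levels of different genes were compared as TPM, that is, counts per kilobase of merged exons scaled to the same sum in each library. In wildtype libraries of group 1 the order was Slc25a1 (164 TPM), Acly (146), Srebf1 (113), Fasn (68.9), Acss2 (30.4), Acaca (17.3), Me1 (2.74) and Acacb (0.765), each apart from the next in its range over 3 libraries. In the mutants of group 1, Acly (169 TPM) stood above Slc25a1 (123) and Fasn (83.9) above Srebf1 (68.1). In wildtype libraries of group 2 the upper 4, Fasn (168 TPM), Acly (165), Srebf1 (151) and Slc25a1 (150), overlapped from each to the next. In the mutants there Fasn (218 TPM) and Acly (180) stood apart above Srebf1 (116) and Slc25a1 (114), which overlapped each other. In the low-yield mutants the order was Fasn (242 TPM), Acly (197), Slc25a1 (126) and Srebf1 (112), each apart. Mlxipl and Thrsp were at most 0.211 TPM on average in all 5 groups. With the longest transcript as the length, Acss2 moved above Fasn in wildtype libraries of group 1 (64.9 against 56.9 TPM) and Fasn and Srebf1 overlapped in the mutants. In group 2 the longest transcript put Fasn (149 TPM) at the fourth place in wildtype, behind Srebf1 (160), Acly (160) and Slc25a1 (158), each overlapping the next. There Acss2 stood above Acaca in all 3 groups, overlapping it in the low-yield mutants, and Fasn and Acly overlapped in mutants and low-yield mutants. The order thus depends on the length chosen.

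Genes whose levels ran most like Srebf1 over the 15 libraries, after centring on the mean of each group of mice, were ranked by Pearson's r of log2 CPM among 9016 genes with a mean of at least 5 CPM in both groups. They were Scd2 (r = 0.973), a stearoyl-CoA desaturase, then Necap2 (0.967), Arrdc2 (0.966), the sulfate transporter gene Slc26a1 (0.965) and Apbb3 (0.965). Slc25a1 was at rank 42 (r = 0.932). Acss2 had r = 0.721, Acly -0.465, Fasn -0.702 and Acaca -0.876. Most like Fasn were Slc2a3 (r = 0.930), a glucose transporter gene, Surf4 (0.929), Exo5 (0.923), Cstf2 (0.920) and Fem1a (0.920), with Acaca at rank 457 (r = 0.779). These correlations are a description: they include the difference between mutant and wildtype, and the libraries share depth and normalisation. Within the 5 groups, r with Srebf1 was lower for the closest genes, at 0.714 for Scd2, 0.501 for Necap2, 0.337 for Arrdc2, 0.448 for Slc26a1 and 0.414 for Apbb3. Among the members it was 0.747 for Slc25a1, 0.381 for Acss2, 0.205 for Acly, 0.0644 for Fasn and -0.522 for Acaca. For the genes closest to Fasn, r with Fasn within the groups was 0.859 for Slc2a3, 0.863 for Surf4, 0.930 for Exo5, 0.831 for Cstf2 and 0.843 for Fem1a, and it was 0.430 for Acaca.

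Of the 12 genes of SREBP processing and partner factors, all tested, 2 were lower and none higher in group 1, 1 was lower in the mutants of group 2, and 3 were lower and 1 higher in the low-yield mutants. The shares of all tested genes called lower were 6.78%, 2.95% and 5.86%. In the low-yield mutants 6.68% were called higher, so 1 of 12 higher there is near the background. Over both groups of mice the share was 9.8% in each direction. Insig1, an endoplasmic reticulum anchor of the SREBP escort protein and itself a SREBP target, fell in all 3, by 0.70 (SE 0.11, adjusted p = 0.0023), 0.56 (SE 0.14, adjusted p = 0.0332) and 0.68 (SE 0.14, adjusted p = 0.0063). In the fit of both groups of mice, 3 fell, Insig1 by 0.64 (SE 0.09), the LXR beta gene Nr1h2 by 0.22 (SE 0.05) and its partner Rxra by 0.26 (SE 0.06), and 2 rose, Usf1 and Mlx, which encodes the dimer partner of ChREBP, the latter by 0.23 (SE 0.07). The group 1 call of Nr1h2 was lost without wildtype replicate 2 or 3 or mutant replicate 3 (adjusted p up to 0.0612), which leaves 1 of the 2. The Insig1 call in the mutants of group 2 was lost without wildtype replicate 1 or 3 or any 1 mutant library (adjusted p up to 0.101), and that of Mlx without wildtype replicate 1 or 3 or mutant replicate 3 of group 1, or mutant replicate 3 of group 2 (up to 0.0768). Srebf2, the paralogue that drives cholesterol synthesis and was singled out after its values were seen, had -0.19 (adjusted p = 0.102) in group 1 and -0.08 (adjusted p = 0.609) in the mutants of group 2, and fell by 0.26 (adjusted p = 0.0221) in the low-yield mutants. The count ratio of Srebf1 to Srebf2 was 1.47 ± 0.06 in wildtype and 0.984 ± 0.042 in mutant libraries of group 1, and 1.43 ± 0.12, 1.08 ± 0.07 and 1.09 ± 0.04 in the wildtype, mutant and low-yield mutant libraries of group 2 (SD, n = 3 each).

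Among 11 accessory genes of carboxylase and synthase, 1 was lower in group 1 and 2 in each comparison of group 2, with none higher. At 6.78% of all tested genes lower in group 1, 1 of 11 is near the background, and the shares in group 2 were 2.95% and 5.86%. Mid1ip1, the Spot 14 relative that promotes carboxylase polymerisation, fell by 0.41 (SE 0.09, adjusted p = 0.0099), 0.38 (SE 0.10, adjusted p = 0.0268) and 0.46 (SE 0.09, adjusted p = 0.0052). Its call was lost in group 1 without wildtype replicate 2 or mutant replicate 3 (adjusted p up to 0.0597), and in the mutants of group 2 without replicate 2 or 3 of either genotype (up to 0.129) or with only the 6 libraries compared (0.0531). Mlycd, malonyl-CoA decarboxylase, fell in both comparisons of group 2, by 0.60 (SE 0.16, adjusted p = 0.0350) and 0.51 (SE 0.16, adjusted p = 0.0411). Over both groups of mice, 3 fell, Mid1ip1 by 0.40, Mlycd by 0.43 and Prkab2 by 0.43, and Prkaa2, a catalytic subunit of the AMP-activated kinase that inhibits carboxylase, rose by 2.00 (SE 0.42, adjusted p = 0.0017) from a low level, 0.187 CPM in wildtype and 0.649 CPM in mutant libraries of group 1. In that fit 9.8% of all tested genes were called in each direction, so 1 of 11 higher is near the background. The Mlycd calls were kept in 4 of 9, 2 of 9 and 2 of 12 fits without 1 library (adjusted p up to 0.159, 0.192 and 0.138), and in 8 of 8, 7 of 8 and 2 of 7 other settings, in the mutants, the low-yield mutants and over both groups of mice.

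Among 17 genes of acetyl-CoA and NADPH supply, 16 of them tested, 1 rose and 1 fell in group 1, 1 fell in the mutants and 2 in the low-yield mutants of group 2. In group 1 these counts are near the background of 5.79% higher and 6.78% lower among all tested genes, and in group 2 the shares called lower were 2.95% and 5.86%. Acss1, the mitochondrial acetyl-CoA synthetase, fell by 0.39 (SE 0.06, adjusted p = 0.0013), 0.39 (SE 0.08, adjusted p = 0.0122) and 0.51 (SE 0.08, adjusted p = 0.0011). Pdha1, a subunit of pyruvate dehydrogenase, rose by 0.27 (SE 0.07, adjusted p = 0.0208) in group 1, a call lost without wildtype replicate 2 or 3 or mutant replicate 3 (adjusted p up to 0.118). The Acss1 call in the mutants of group 2 was lost without mutant replicate 1 or 3 (up to 0.0679). Over both groups of mice 1 rose, Pdha1, and 5 fell, Acss1, Pcx, Tkt, Pgls and Taldo1, against 9.8% of all tested genes in each direction. The Tkt call was lost without wildtype replicate 2 or mutant replicate 2 of group 2 (adjusted p up to 0.0634). None of the 7 genes of mitochondrial fatty acid synthesis was called by edgeR, DESeq2 or voom within either group of mice. With edgeR, 1 had an unadjusted p under 0.05 in group 1, and 2 in each comparison of group 2. Of all tested genes, 3846 of 14048, 3071 of 15024 and 3984 of 15024 did so. Acsf3 fell by 0.26 (SE 0.08, adjusted p = 0.0305) over both groups, a call kept in 6 of 12 fits without 1 library (adjusted p up to 0.0823).

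Of 6 fatty acid desaturases and elongases (Scd1, Scd2, Fads1, Fads2, Elovl5 and Elovl6), 4 fell in group 1, 3 in the mutants and 4 in the low-yield mutants of group 2, where Elovl6 rose. Of all tested genes, 6.78%, 2.95% and 5.86% were called lower, and 6.68% higher in the low-yield mutants. Scd1, Scd2 and Elovl6 act on products of fatty acid synthase, while Fads1, Fads2 and Elovl5 act mainly on polyunsaturated fatty acids. The median log2 fold change of the 6 was -0.55, -0.31 and -0.56, against 0.01, -0.01 and 0.00 for all tested genes. Scd1, like Scd2 a stearoyl-CoA desaturase, fell by 1.83 (SE 0.15, adjusted p = 8.1e-05), 1.51 (SE 0.20, adjusted p = 0.0014) and 2.56 (SE 0.22, adjusted p = 3.2e-05), from a wildtype mean of 42.7 CPM to 12 CPM in group 1. Scd2, the gene that ran closest to Srebf1, stood far higher, with a mean of 870 CPM in wildtype and 526 CPM in mutant libraries of group 1. It fell by 0.73 (SE 0.07), 0.44 (SE 0.10) and 0.75 (SE 0.10), and the desaturase gene Fads2 by 0.70 (SE 0.07), 0.44 (SE 0.09) and 0.72 (SE 0.09). In the mutants of group 2 the Scd2 call was lost without wildtype replicate 2 or mutant replicate 1 or 3 (adjusted p up to 0.0822), and that of Fads2 without wildtype replicate 2 or 3 or mutant replicate 3 (up to 0.0726). The Fads1 call in the low-yield mutants was kept in 5 of 9 fits, being lost without wildtype replicate 2 or 3 or low-yield mutant replicate 1 or 2 (up to 0.121). None of the 5 pathway lists had a member called by edgeR between low-yield mutants and mutants. There 3 genes of the SREBP list, 3 of the desaturase and elongase list and 1 of the mitochondrial list had an unadjusted p under 0.05. Of all tested genes, 480 of 15024 had one.

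**Figure D4:**
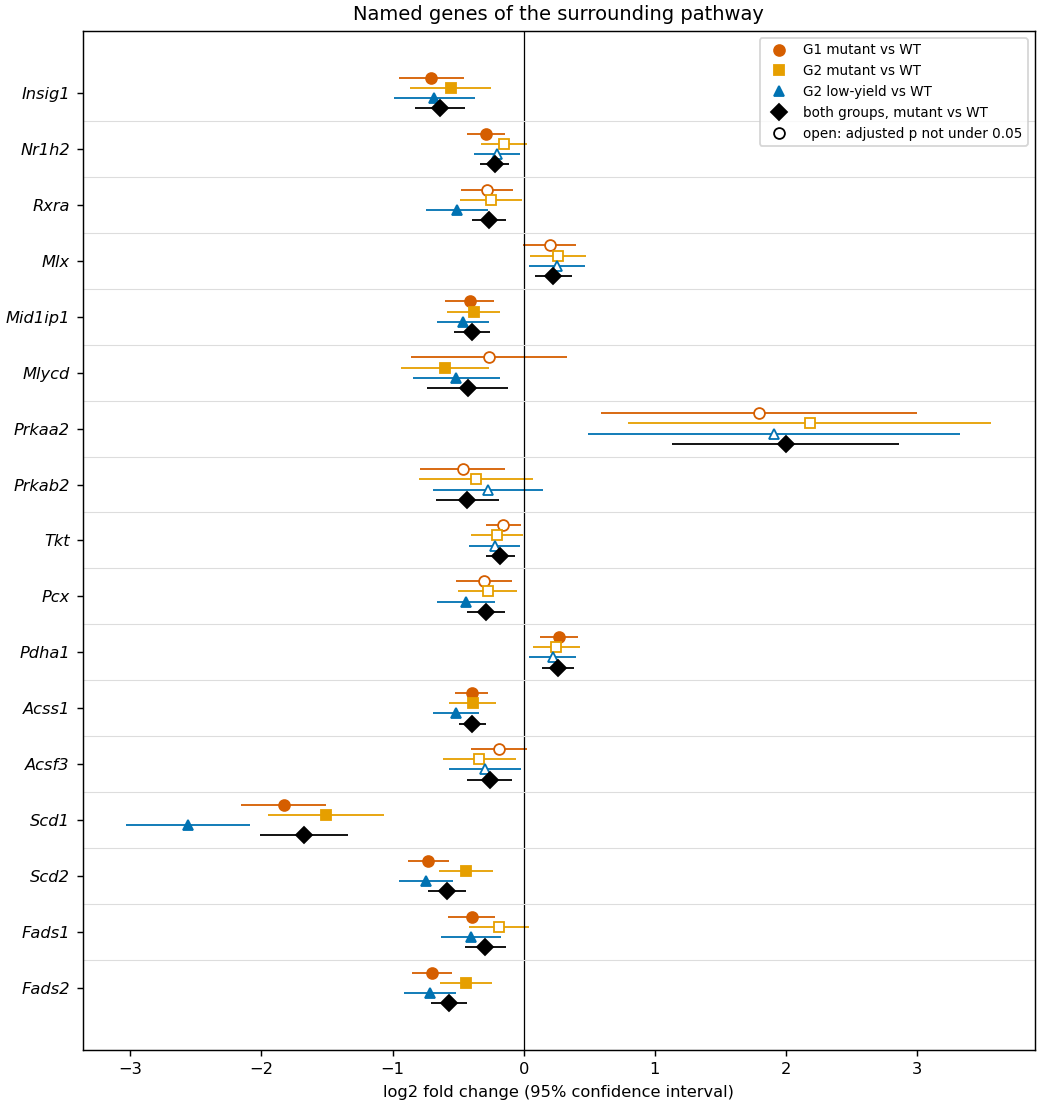
Log2 fold change against wildtype, with 95% confidence interval, of 17 named genes from the 5 pathway lists in group 1, in the mutants and low-yield mutants of group 2, and over both groups of mice; filled symbols have an adjusted p under 0.05 (edgeR). Insig1, Mid1ip1, Acss1, Scd1, Scd2 and Fads2 are filled and below 0 in all 4 comparisons, and Scd1 reaches -2.56 in the low-yield mutants.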

How the data were processed

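RNA was sequenced as 151 bp paired reads, per the labels' protocols. The submitters' processing notes name cutadapt 2.3, STAR 2.7.8a, RSEM 1.3.3 and GRCm38, with no options or strand setting. The authors deposited 1 table of expected counts for each group of mice; all values were whole, so rounding changed 0 of them. The 4 reporter rows of group 1 and 5 of group 2 held 5 counts in all and were left out. Gene positions and lengths came from GENCODE release M21 (55141 of 55487 genes matched), and Hsd17b8 is listed there under its synonym H2-Ke6.

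Tests used edgeR 4.0.16 in R 4.3.3 over all genes: TMM scaling, low counts removed by filterByExpr, a robust quasi-likelihood fit, two-sided F tests and Benjamini-Hochberg adjustment over all genes tested, with calls at an adjusted p under 0.05. The quasi-likelihood mode without legacy settings was chosen after seeing the data, and the legacy mode was run as an alternative. Group 1 was fitted on 6 libraries, group 2 on 9 and both groups on 12 with the group of mice as a covariate. Alternatives used DESeq2 1.42.0, limma 3.58.1 (voom), other filters and scaling, replicate blocks and leaving out each library. On simulated counts the procedure was tested for recovery of known changes. Deviations of every same-numbered wildtype and mutant library of group 1 correlated above 0.1 over genes (r = 0.559, 0.241 and 0.225), so its replicate numbers served as a block. This block was an alternative, and the main fits, figures and pathway lists are without it. Wildtype 3 and mutant 2, of unlike number, had r = 0.316, and the labels name no shared litter or batch. Replicates of every group differed by more than counting noise. The members and gene lists were chosen with earlier results of these data known. Named genes are all members, up to 4 called genes per list by smallest p over both groups of mice, and the 5 genes most like Srebf1 and Fasn; Srebf2, Usf1, Elovl6, Pgls and Taldo1 were named after their values were seen.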

Additional observations from a re-analysis of the deposited data

How the results depend on the processing

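Srebf1 and Slc25a1 were called as lower in every alternative of all 4 comparisons with wildtype (13, 17, 17 and 19 alternatives each), and Acaca and Fasn as higher in all 19 over both groups of mice. In group 1, 5 members were called with DESeq2, 5 with a minimum mean of 5 CPM (Acly, Acaca and Fasn added in both) and 5 with the replicate block (Acaca, Fasn and Me1 added). In group 2, voom with sample weights called 4 members in the mutants (Acaca and Fasn added) and 4 in the low-yield mutants (Acss2 and Fasn added). Leaving out 1 library gave 2 to 4 called members in group 1 (4 without mutant replicate 2) and 2 to 4 in the low-yield mutants (4 without low-yield mutant replicate 3). The call of Acss2 over both groups of mice was lost with voom (adjusted p = 0.0698) and without the filter (adjusted p = 0.0551). The cause of these changes was not tested.

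Signs that turned belonged to estimates near 0 that were not called. Without 1 library, Acly ranged from -0.0228 to 0.141 in the mutants and -0.0305 to 0.129 in the low-yield mutants of group 2. Between low-yield mutants and mutants the ranges were -0.0710 to 0.0319 for Acly, -0.0832 to 0.0722 for Fasn, -0.0271 to 0.0630 for Slc25a1, -0.0426 to 0.00488 for Acaca and -0.152 to 0.496 for Me1. For the interaction they were -0.113 to 0.0913 for Acss2, -0.207 to 0.123 for Me1, -0.0925 to 0.0330 for Acaca, -0.0769 to 0.129 for Fasn and -0.144 to 0.04003 for Slc25a1. The interaction of Acss2 also turned to -0.0105 with DESeq2 and -0.0092 with relative log expression factors, that of Me1 to -0.0215 with DESeq2, -0.0222 with voom, -0.0059 with relative log expression factors and -0.00013 in the legacy mode, and that of Acaca to 0.0189 with voom.

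The carboxylase share of Acacb depended on the length used: with the longest transcript it was 2.64% and 2.57% in wildtype and mutant libraries of group 1 and 3.43%, 1.81% and 2.16% in wildtype, mutant and low-yield mutant libraries of group 2, and from raw counts 2.44%, 2.38%, 3.18%, 1.67% and 2.00%. In group 2 not every same-numbered wildtype and mutant library correlated above 0.1 (r = 0.315, 0.224 and 0.0156), so the replicate numbers were not taken to pair them. Whether the libraries of either group are paired cannot be decided from such values. The replicate block in group 2 called 2 members in the mutants, 3 in the low-yield mutants (Fasn added, adjusted p = 0.0375) and 0 between low-yield mutants and mutants. Over both groups of mice the block called 6. Mlxipl and Thrsp, at 0 to 26 and 0 to 10 counts per library, were too low to be tested with the filter.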
